A study of Mus musculus with 9 samples.

Results

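Hspa5, Hsp90b1, Calr, Pdia4, Sdf2l1, Dnajb9, Herpud1, Xbp1, Creld2 and Manf are 10 genes that a cell needs to fold proteins in its endoplasmic reticulum and to react when folding falls behind. They were taken by gene symbol from tables of 55286 genes, and all 10 were among the 15158 genes that passed the filter on low counts. RNA-seq libraries of mouse lung fell into 3 groups of 3. One group came from explants of wild-type lung taken on embryonic day E11.5, when the airway buds begin to branch, and cultured for 72 h with EPZ5676, an inhibitor of the histone methyltransferase DOT1L that is also called pinometostat. Another came from explants of the same stage and genotype cultured for 72 h as controls, and the last from E11.5 lung that was not cultured, called fresh lung here. The dose of EPZ5676, the vehicle, the mouse strain and the number of embryos behind a library are not stated in the labels, and the inhibitor was given to the whole explant.

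Proteins that are secreted or sit in membranes are folded inside the endoplasmic reticulum, where chaperones hold unfolded chains and disulfide isomerases pair their cysteines. When unfolded chains build up, the sensors IRE1, PERK and ATF6 start the unfolded protein response. IRE1 splices the Xbp1 transcript so that it encodes an active transcription factor, PERK slows translation and favours translation of ATF4, and ATF6 is cut to release a transcription factor, and together these raise the transcripts of chaperones and of the machinery that degrades misfolded proteins. Cells that secrete matrix or other proteins, which the lung has in its mesenchyme and epithelium, also express these genes in the absence of stress.

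ATF6 and XBP1 are known to act through short promoter elements, and the promoters that hold such an element in full are printed because they set some of the 10 genes apart from the others by sequence. Of the 10 genes, 9 were matched to RefSeq promoter windows of GRCm38.p6, each of 300 bases with 250 before and 50 after the annotated start; Manf was not matched. The element ERSE was searched as CCAAT, any 9 bases and CCACG, and the element ERSE-II as ATTGG, any 1 base and CCACG, without mismatch and on both strands. The windows are given 5′ to 3′ along the gene, with capitals marking a full element: chr2:34771840-34772139 on the plus strand for Hspa5, chr10:86705395-86705694 on the minus strand for Hsp90b1, chr8:84846882-84847181 on the minus strand for Calr, chr15:88819396-88819695 on the plus strand for Creld2 and chr8:94386179-94386478 on the plus strand for Herpud1.
Hspa5: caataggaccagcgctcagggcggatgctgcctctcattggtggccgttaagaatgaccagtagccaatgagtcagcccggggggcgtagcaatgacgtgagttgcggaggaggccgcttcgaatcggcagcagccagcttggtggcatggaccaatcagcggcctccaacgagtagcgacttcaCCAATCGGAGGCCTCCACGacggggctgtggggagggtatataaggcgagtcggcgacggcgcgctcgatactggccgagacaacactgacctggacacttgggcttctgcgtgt
Hsp90b1: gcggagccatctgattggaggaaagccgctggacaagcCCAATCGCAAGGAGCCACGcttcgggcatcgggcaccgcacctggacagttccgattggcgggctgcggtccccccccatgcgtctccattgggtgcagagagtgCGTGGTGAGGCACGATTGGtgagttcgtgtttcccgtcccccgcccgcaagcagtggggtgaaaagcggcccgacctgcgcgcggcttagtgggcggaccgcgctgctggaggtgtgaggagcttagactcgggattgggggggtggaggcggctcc
Calr: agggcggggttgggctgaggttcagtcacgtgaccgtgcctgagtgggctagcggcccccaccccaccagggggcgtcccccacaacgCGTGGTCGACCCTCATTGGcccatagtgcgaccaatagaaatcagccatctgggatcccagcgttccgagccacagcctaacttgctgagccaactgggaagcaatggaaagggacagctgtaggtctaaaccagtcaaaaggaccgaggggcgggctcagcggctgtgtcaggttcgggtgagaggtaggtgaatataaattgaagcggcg
Creld2: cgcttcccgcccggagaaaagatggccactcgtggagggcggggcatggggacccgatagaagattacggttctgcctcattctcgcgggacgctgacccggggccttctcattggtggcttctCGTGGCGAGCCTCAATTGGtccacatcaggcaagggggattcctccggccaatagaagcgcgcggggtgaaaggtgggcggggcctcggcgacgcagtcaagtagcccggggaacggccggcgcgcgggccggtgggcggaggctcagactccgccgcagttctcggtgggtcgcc
Herpud1: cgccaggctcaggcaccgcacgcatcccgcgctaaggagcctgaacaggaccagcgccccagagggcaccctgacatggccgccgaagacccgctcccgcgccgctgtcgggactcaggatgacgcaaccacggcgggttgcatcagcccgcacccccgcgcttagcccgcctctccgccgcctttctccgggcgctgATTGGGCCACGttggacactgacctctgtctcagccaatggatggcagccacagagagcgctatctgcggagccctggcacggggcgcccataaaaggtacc

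A full ERSE was found in 4 of 9 windows, those of Hspa5, Hsp90b1, Calr and Creld2, against 39 of all 32851 windows of the same length (0.119%). Hspa5 had its match on the strand of the gene at -65 to -47, while Calr and Creld2 had theirs on the other strand, at -162 to -144 and -126 to -108. Hsp90b1 had a match on each strand, at -212 to -194 and -107 to -89. Herpud1 was the only one of the 9 with a full ERSE-II, at -52 to -42, against 12 of 32851 windows (0.0365%). The XBP1 element core TGACGTGG was in 0 of 9 windows and in 222 of 32851 (0.676%). The boxes that make up an ERSE were common by themselves: CCAAT was in 8 of 9 windows and 37.4% of all, and CCACG in 8 of 9 and 32.8% of all, each full element overlapping both boxes. The Xbp1 window held neither box. The elements were searched because they are already known for this response, so finding them here is no test of enrichment. A match describes the letters of the window, not binding.

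**Figure D1:**
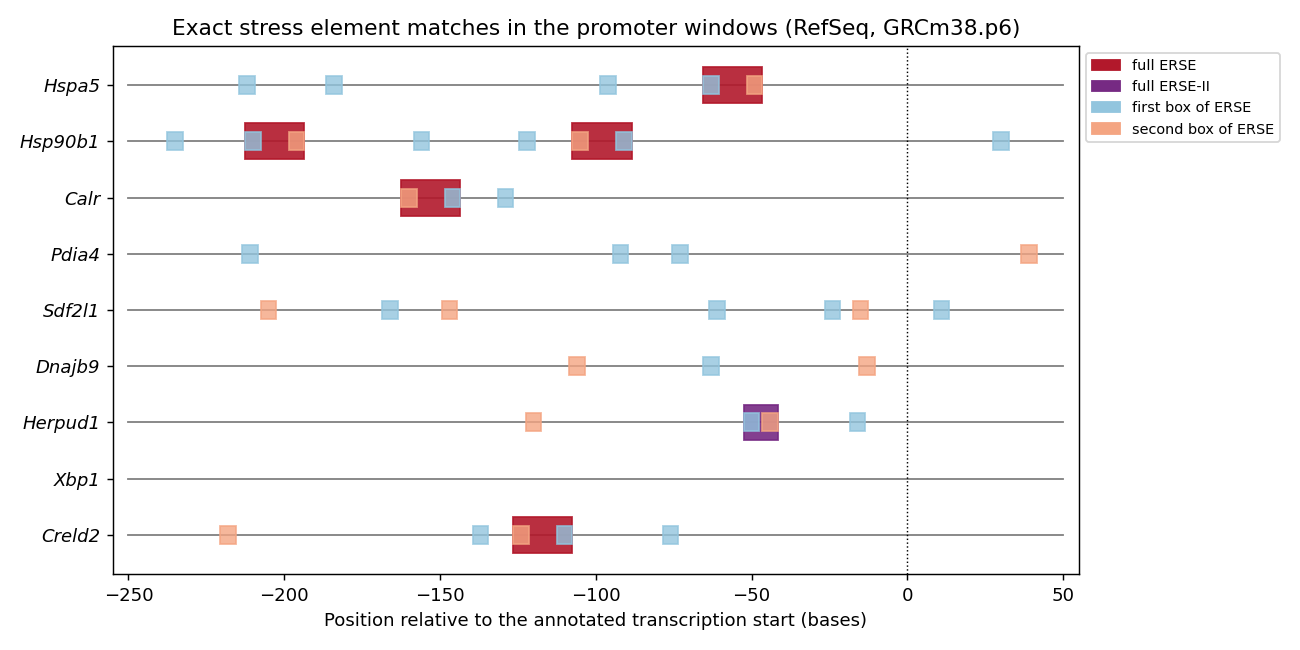
Positions of exact element matches in the promoter windows of 9 genes, in bases from the RefSeq start. Tall dark boxes are full ERSE (Hspa5, Hsp90b1, Calr, Creld2) and full ERSE-II (Herpud1) matches; small boxes are matches of the first (CCAAT) and second (CCACG) box of ERSE, of which the Xbp1 window has neither.

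The libraries held 6509563 to 9861452 expected counts each, and the 10 genes had from 61 counts (the lowest library of Sdf2l1) to 11439 (the highest of Hsp90b1). Levels are TPM as deposited, which are per transcript length and can be compared between genes. Nothing in the labels ties the libraries of a group to separate embryos or cultures, so p-values measure library-to-library spread, part of which may be technical. The libraries held the markers of lung tissue: all 10 epithelial and all 10 mesenchymal markers averaged at least 1 TPM in every group. Control 3 stood apart from the other cultured libraries: it had the lowest TPM of the 6 for 46.0% of all genes tested, and its summed epithelial markers were at 615.7 TPM, against 903.8 to 1257 TPM in EPZ5676 explants and 982.7 and 959 TPM in Control 1 and Control 2. Control 1 stood apart in liver and cartilage genes, with summed hepatocyte markers at 310.7 TPM, against 35 to 62.7 TPM in EPZ5676 explants and 29.3 and 15.2 TPM in the other controls. The female-specific transcript Xist had 0.58, 209.7 and 0.77 TPM in EPZ5676 explants and 281, 278 and 0.25 TPM in control explants, so the cultured groups also differed in this. The Y-linked transcript Ddx3y had 55.72, 0.44 and 49.92 TPM in EPZ5676 explants and 0, 0.08 and 45.35 TPM in control explants. Within each cultured group the libraries thus differed in the sex of their embryos and did not all come from the same embryos.

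The 3 large chaperones stood far above the other members. Calr encodes calreticulin, a calcium-binding chaperone of glycoproteins. It averaged 995 ± 127 TPM in EPZ5676 explants, 889 ± 214 TPM in control explants and 992 ± 73.8 TPM in fresh lung (SD, n = 3 each). Hsp90b1, which encodes the HSP90 of the endoplasmic reticulum, GRP94, averaged 792 ± 67.7, 694.5 ± 114 and 981 ± 50.8 TPM in the same groups. Hspa5 encodes BiP, the HSP70 chaperone that also holds the stress sensors inactive, and averaged 710.3 ± 52.6, 617 ± 131 and 752 ± 55 TPM. The levels of Hsp90b1 and Hspa5 overlapped in both cultured groups and not in fresh lung, and those of Calr and Hsp90b1 overlapped in control explants and fresh lung but not in EPZ5676 explants, where the nearest libraries stood at 859 and 857 TPM. Among all genes the mean TPM of the 3 ranked between 139 and 200 in the 3 groups. Calr, Hsp90b1 and Hspa5 together made up 79.8% to 81.1% of the summed TPM of the 10 genes in EPZ5676 explants, 79.4% to 80.6% in control explants and 83.6% to 83.9% in fresh lung, so the cultured and fresh ranges did not overlap.

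Below them came Manf, a small secreted protein that protects stressed cells, and Pdia4, a disulfide isomerase. Manf averaged 206 ± 9.67 TPM in EPZ5676 explants, 183 ± 35.2 TPM in control explants and 192 ± 18.1 TPM in fresh lung. Pdia4 averaged 197 ± 14.3, 178 ± 45.2 and 181 ± 8.54 TPM. These neighbours did not differ beyond their spread in any group. Xbp1, the target of IRE1, averaged 69.9 ± 6.79, 56.4 ± 18.3 and 55.5 ± 2.68 TPM; its gene total does not separate the spliced from the unspliced transcript, so it does not measure IRE1 activity. Creld2, a protein of the endoplasmic reticulum with disulfide isomerase activity, averaged 43.7 ± 2.12, 38.8 ± 9.94 and 37.9 ± 1.96 TPM. Herpud1, a membrane protein that organises the degradation complex, was beside Creld2 in culture, at 44.7 ± 1.80 TPM in EPZ5676 explants and 47.1 ± 6.04 TPM in control explants, but at 20.1 ± 3.40 TPM in fresh lung. The lowest levels were those of Sdf2l1 and Dnajb9, partners of BiP: Sdf2l1 averaged 26.7 ± 3.21, 22.2 ± 7.74 and 21.9 ± 2.08 TPM, and Dnajb9 19.0 ± 2.55, 20.7 ± 3.19 and 16.6 ± 1.68 TPM. In fresh lung the libraries of Herpud1 overlapped with those of Sdf2l1 and of Dnajb9, while Sdf2l1 lay above Dnajb9 without overlap. Manf overlaps Dcaf1 on the opposite strand and Rbm15b on its own strand in the annotation, and whether reads were counted by strand is not stated, so its values may include reads of these neighbours. Hsp90b1 overlaps 1810014B01Rik on the opposite strand and Gm15344 on its own, which reached at most 14.6 and 18 TPM in a library.

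**Figure D2:**
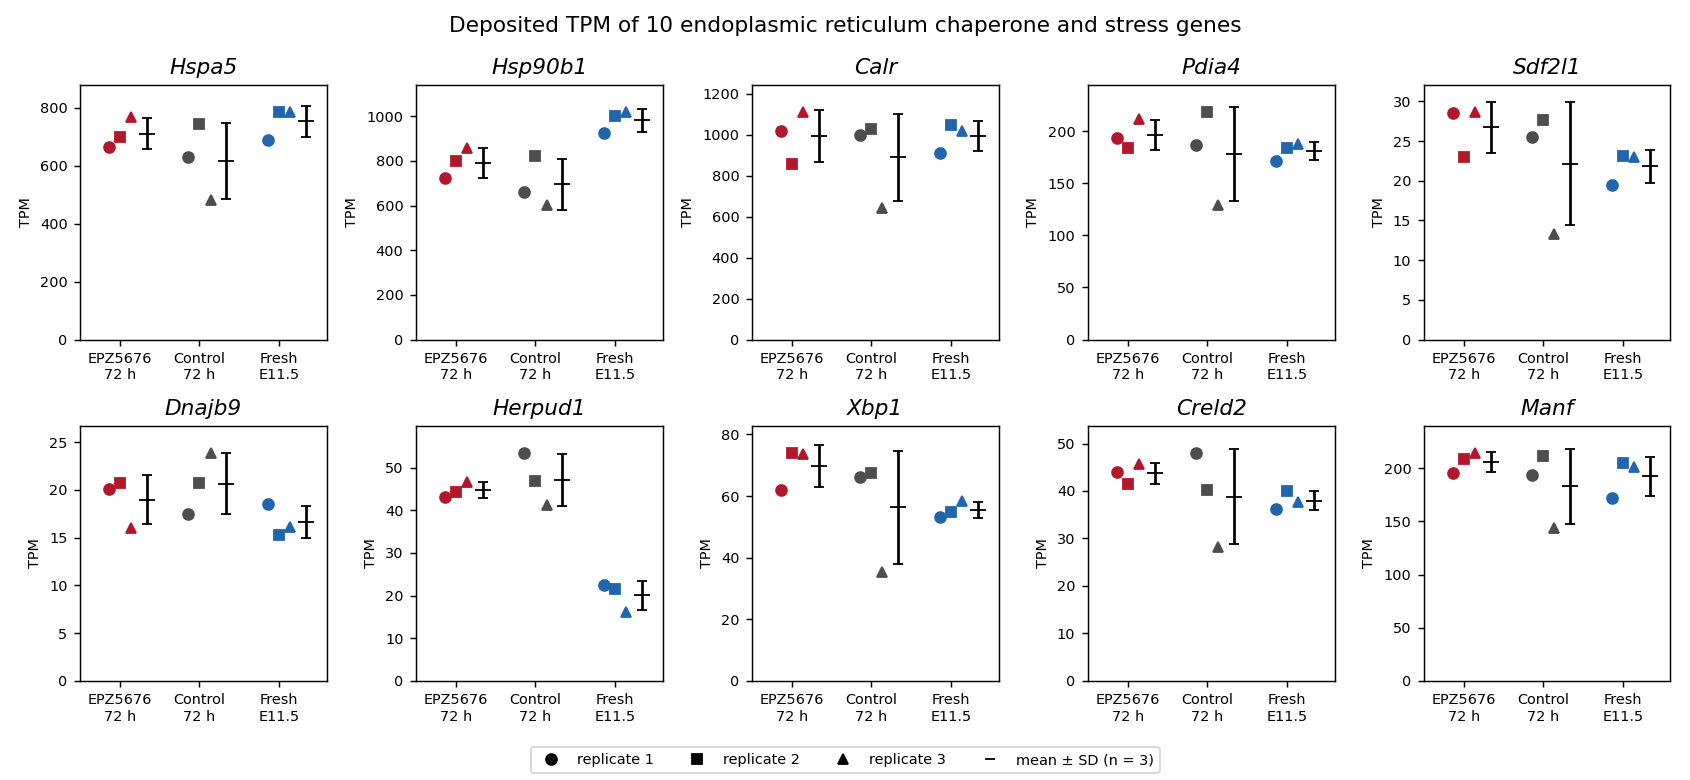
Deposited TPM (vertical axes, from 0) of the 10 genes in each library, by group from left to right EPZ5676, Control and fresh E11.5, with the mean and SD of 3 libraries as bars. Herpud1 shows 3 fresh libraries below all 6 cultured ones, and Control 3 (grey triangle) is the lowest cultured library for 9 of the 10 genes.

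The comparison of EPZ5676 with control explants asked what DOT1L inhibition does to the cultured lung. None of the 10 genes passed the threshold (edgeR's quasi-likelihood test, Benjamini-Hochberg adjustment, adjusted p of 0.827 to 0.922), nor did any of all 15158 genes tested (0.0%). By sign, 8 of the 10 lay higher and 2 lower in EPZ5676 explants, where 49.2% of all genes lay higher, and the median log2 fold change was 0.144 over the 10 and -0.004 over all genes. At an unadjusted p under 0.05 there were 1052 genes (6.94%), none of them a member, and DESeq2 called 67 genes higher and 16 lower, again none a member. For all 10 genes the TPM of the groups overlapped; 8.23% of all genes had groups that did not overlap.

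Xbp1 had the highest fold change. It was at 62.0, 73.8 and 73.8 TPM in EPZ5676 explants, against 66.3, 67.5 and 35.2 TPM in control explants (log2 fold change 0.289 ± 0.187 SE, 95% interval -0.13 to 0.70, adjusted p = 0.827 by edgeR). All 3 treated libraries lay near Control 1 and Control 2, and only Control 3 was far below; without Control 3 the log2 fold change was 0.0811. Sdf2l1 behaved likewise, at 28.5, 23.0 and 28.6 TPM in EPZ5676 explants, against 25.5, 27.6 and 13.3 TPM in control explants (0.257 ± 0.205, interval -0.20 to 0.71, and 0.0621 without Control 3).

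The chaperones differed less. Hspa5 was at 664, 699 and 768 TPM in EPZ5676 explants, against 629, 742 and 479.8 TPM in control explants (log2 fold change 0.171 ± 0.141, interval -0.14 to 0.48). Calr was at 1016, 859 and 1109.7 TPM, against 997, 1027 and 643 TPM (0.127 ± 0.122, interval -0.14 to 0.40). In both genes Control 2 exceeded 2 of the 3 treated libraries. For Hsp90b1 the log2 fold change was 0.162 ± 0.138 (interval -0.14 to 0.47), for Pdia4 0.119 ± 0.133 (-0.18 to 0.41), for Creld2 0.155 ± 0.124 (-0.12 to 0.43) and for Manf 0.133 ± 0.125 (-0.14 to 0.41). Single libraries moved these values: without Control 3 they were 0.0259 for Calr, 0.00471 for Pdia4, 0.0465 for Creld2 and 0.0633 for Manf, and without Control 1 0.0493 for Hsp90b1 and 0.0925 for Hspa5. Without Control 2 they reached 0.217 to 0.317 for Calr, Pdia4, Manf, Hsp90b1 and Hspa5. The intervals of these 6 genes leave room for a change in either direction, up to the bounds given.

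Dnajb9 and Herpud1 lay lower in EPZ5676 explants without passing the test. Dnajb9 was at 20.1, 20.8 and 16.1 TPM in EPZ5676 explants, against 17.5, 20.7 and 23.8 TPM in control explants (log2 fold change -0.196 ± 0.198, interval -0.63 to 0.24). Its highest cultured value was that of Control 3, and without that library the sign turned (0.0277). Herpud1 was at 43.2, 44.3 and 46.7 TPM in EPZ5676 explants, against 53.3, 46.8 and 41.3 TPM in control explants (-0.101 ± 0.121, interval -0.37 to 0.17). Without Control 3 the median of the 10 genes was 0.0543, and over the libraries left out one at a time it lay between this and 0.271, the value without Control 2.

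Much of the spread among controls came from Control 3. It had the lowest TPM of all 6 cultured libraries for 9 of the 10 genes, all but Dnajb9, where it had the highest; over all genes it was lowest for 46.0%. On log2 CPM after TMM scaling, which takes out part of that general shift, it was lowest for 6 of the 10 genes and for 26.1% of all genes. Relative to the mean of Control 1 and Control 2, Control 3 stood at 50% for Sdf2l1, 52.7% for Xbp1, 63.5% for Calr, 63.8% for Pdia4, 64.0% for Creld2, 70.0% for Hspa5, 70.9% for Manf, 81.1% for Hsp90b1 and 82.4% for Herpud1, and at 125% for Dnajb9. Control 3 also had the lowest summed TPM of epithelial (615.7), endothelial (24.9) and macrophage (135.9) markers among the 6 cultured libraries. Its mitochondrial share of counts was the highest of these 6 (5.40%). It was also the only control with low Xist and high Ddx3y (0.25 and 45.35 TPM). The part of these traits in the levels of the 10 genes was not tested. In a bulk sample fewer cells of a type and less RNA per cell cannot be told apart. Among treated explants, EPZ5676 3 had the highest TPM for 8 of the 10 genes, where it was highest in its group for 26.2% of all genes. Among fresh libraries, the first was lowest for 8 of the 10, against 35.2% of all genes.

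**Figure D3:**
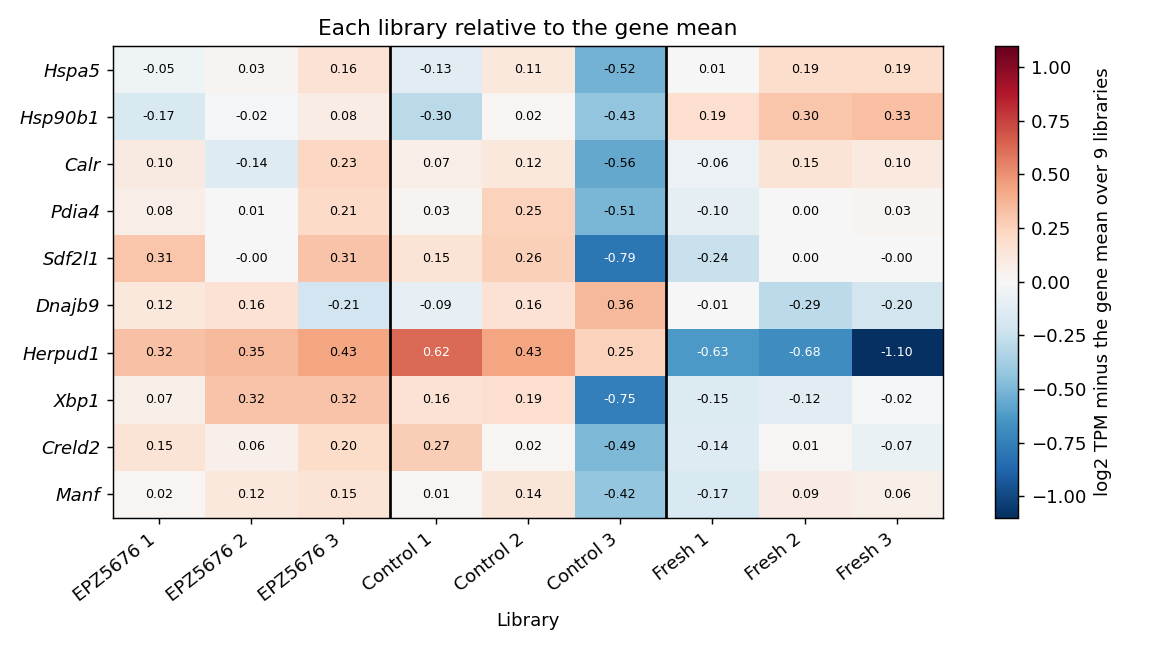
Log2 TPM of each gene in each library minus that gene's mean over 9 libraries (colour and number), with libraries in columns grouped as EPZ5676, Control and fresh. The Control 3 column is below 0 for all genes but Dnajb9 and Herpud1, and the Herpud1 row is above 0 in all cultured and below 0 in all fresh libraries.

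The comparison of control explants with fresh lung asked what changed over 72 h of culture, in which culture and age cannot be told apart. Of the 10 genes, Herpud1 rose and Hsp90b1 fell, and 8 did not pass the test, where 37.7% of all genes changed in either direction. Thus 1 of 10 was higher, where 21.1% of all genes were, and 1 of 10 was lower, where 16.6% were. The groups did not overlap in TPM for 2 of 10 genes, against 44.4% of all genes, and the median log2 fold change was 0.02 both over the 10 and over all genes.

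Herpud1 (chr8:94386438-94395377, plus strand, GRCm38) was at 53.3, 46.8 and 41.3 TPM in control explants, against 22.4, 21.6 and 16.2 TPM in fresh lung. Every control library lay well above every fresh one, and the fold was 2.57 (log2 fold change 1.363 ± 0.128 SE, interval 1.08 to 1.64, edgeR adjusted p = 3.84e-05). Its log2 fold change lay between 1.23 and 1.45 with any 1 library left out. Its window holds the ERSE-II printed above. Of 9 tested genes with a full ERSE-II, Herpud1 among them, 3 were higher and 2 lower in this comparison. Of 17 with a full ERSE, 4 of them members, 2 were higher and 3 lower. Of all genes 21.1% were higher and 16.6% lower. The part of the element in the level of Herpud1 was not tested.

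Hsp90b1 (chr10:86690209-86705509, minus strand) was at 660.3, 822 and 601 TPM in control explants, against 923, 1002 and 1018 TPM in fresh lung. The groups did not overlap, and the level in control explants was 0.734 times that of fresh lung (log2 fold change -0.446 ± 0.138, interval -0.75 to -0.14, edgeR adjusted p = 0.0267). The call was lost without fresh library 2 or 3 (adjusted p = 0.0833 and 0.0942 by edgeR) and without Control 1 (0.0734). The log2 fold change stayed between -0.58 and -0.33.

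Among the other chaperones with a full ERSE, Calr had a log2 fold change of -0.044 ± 0.122 and did not pass. Hspa5 was at 629, 742 and 479.8 TPM in control explants, against 688, 784 and 783 TPM in fresh lung (log2 fold change -0.274 ± 0.141, interval -0.58 to 0.04, edgeR adjusted p = 0.151). Only Control 2 reached into the fresh range, and without it the gene passed the test at -0.428 (edgeR adjusted p = 0.0363). Dnajb9 was at 17.5, 20.7 and 23.8 TPM in control explants, against 18.5, 15.2 and 16.2 TPM in fresh lung (0.413 ± 0.200, interval -0.03 to 0.85, adjusted p = 0.128). It passed at 0.604 without Control 1 (edgeR adjusted p = 0.0216), the lowest control. The remaining 6 genes had log2 fold changes between -0.075 (Manf) and 0.057 (Xbp1), with intervals within -0.43 to 0.49, and the signs of Calr, Pdia4, Sdf2l1, Xbp1 and Creld2 turned under some settings.

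Markers of cell types also differed between control explants and fresh lung, where number of cells and RNA per cell cannot be told apart. Summed markers of epithelium were at 615.7 to 982.7 TPM in control explants and 316 to 331 TPM in fresh lung. Those of mesenchyme were at 1871 to 2485 and 1128 to 1389 TPM, where 5 of the 10 markers were higher and 3 lower by the test. Those of macrophages were at 136 to 222 and 35.7 to 60.1 TPM, where 9 of the 10 were higher and 1 lower. Endothelial markers were at 24.9 to 114 TPM in control explants, against 279.8 to 307 TPM in fresh lung, and red cell genes at 113 to 1207 TPM, against 18170 to 25090 TPM. The part of these in the levels of Herpud1 and Hsp90b1 was not tested.

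EPZ5676 explants set against the same fresh libraries gave Herpud1 alone past the threshold, so 1 of 10 genes was higher, against 22.1% of all genes, and 0 of 10 lower, against 17.9% (40.0% in either direction). Herpud1 was at 43.2, 44.3 and 46.7 TPM in EPZ5676 explants, against 22.4, 21.6 and 16.2 TPM in fresh lung, a fold of 2.40 (log2 fold change 1.262 ± 0.128, interval 0.98 to 1.54, edgeR adjusted p = 4.36e-05). The treated libraries spanned a narrower range than the controls, and both sets lay above all fresh ones.

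Groups did not overlap in TPM for 4 of 10 genes, against 52.2% of all genes: Herpud1, Hsp90b1, Xbp1 and Creld2. Hsp90b1 was at 721, 798 and 857 TPM in EPZ5676 explants, against 923, 1002 and 1018 TPM in fresh lung (-0.284 ± 0.138, interval -0.59 to 0.02, edgeR adjusted p = 0.126). Xbp1 was at 62.0, 73.8 and 73.8 TPM, against 53.3, 54.7 and 58.5 TPM (0.346 ± 0.188, interval -0.07 to 0.76, edgeR adjusted p = 0.169). A fit to only these 6 libraries called Hsp90b1 at -0.29 (edgeR adjusted p = 0.0455) and Xbp1 at 0.339 (0.0302). Creld2 was at 44.1, 41.4 and 45.6 TPM, against 36.1, 40 and 37.8 TPM (0.209 ± 0.125, interval -0.07 to 0.48). The other 6 had log2 fold changes between -0.103 (Hspa5) and 0.289 (Sdf2l1). Both comparisons use the same fresh libraries, so their values stand side by side and do not count as separate evidence.

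**Figure D4:**
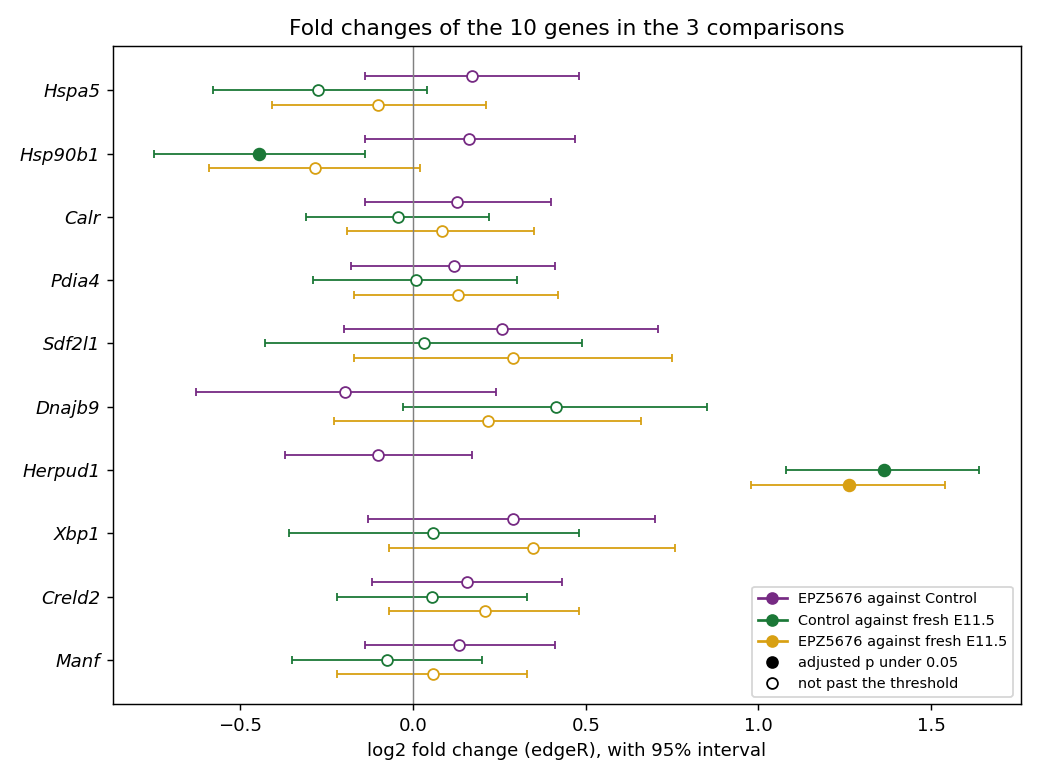
Log2 fold change from edgeR (horizontal axis) with its 95% interval for each of the 10 genes in the 3 comparisons; filled points passed an adjusted p of 0.05. Herpud1 is filled in both comparisons with fresh lung and Hsp90b1 in that of control explants, and no point of EPZ5676 against Control is filled.

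The ratios between members within a library differed between cultured and fresh lung too. Hsp90b1 relative to Calr was 0.710, 0.929 and 0.772 in EPZ5676 explants, 0.662, 0.800 and 0.936 in control explants and 1.02, 0.955 and 0.999 in fresh lung, on TPM. Each fresh value exceeded all 6 cultured ones. Herpud1 relative to Hspa5 was 0.0609 to 0.0650 in EPZ5676 explants, 0.0631 to 0.0860 in control explants and 0.0207 to 0.0326 in fresh lung. These ratios use the same values as the tests above and show only that the members moved unequally.

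Among the other genes of the pathway, 7 lists with 146 genes were looked at, of which 143 were tested. The lists were written with earlier results of these data known, so their shares are a description and not a test. In control explants against fresh lung 49 were higher (34.3%, against 21.1% of all genes) and 1 lower (0.699%, against 16.6%), with a median log2 fold change of 0.20, against 0.02 for all genes; on TPM with limma-trend the calls fell to 29 and 28 higher with pseudocounts of 1 and 0.1. Of 10 sensors and membrane-bound factors, 5 rose and 0 fell (median 0.385). Eif2ak3, which encodes PERK, was at 10.9 ± 2.80 TPM in control explants and 7.23 ± 0.356 TPM in fresh lung (0.631 ± 0.133, edgeR adjusted p = 0.00415). Atf6 was at 10.1 ± 1.23 and 6.86 ± 0.480 TPM in the same groups (0.602 ± 0.1, edgeR adjusted p = 0.00108). Ern1, which encodes IRE1, was at 5.36 ± 0.687 and 4.26 ± 0.196 TPM (0.347 ± 0.111, edgeR adjusted p = 0.0308) and lost its call without any 1 fresh library or without Control 1 or Control 2 (edgeR adjusted p of 0.06 to 0.0928), with DESeq2 (0.0866), without a filter (0.123) and with only the 6 libraries compared (0.0566). On TPM with limma-trend Ern1 (adjusted p of 0.298 to 0.299), Eif2ak3 (0.0737 to 0.076) and Atf6 (0.0533 to 0.0553) all missed the threshold. Creb3l1, a factor cut from the membrane like ATF6 and known to act on collagen genes, was at 26.4 ± 0.746 and 12.5 ± 1.54 TPM (1.136 ± 0.142).

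The branch of PERK and ATF4 held the largest changes. Of its 10 genes 9 rose in control explants, where 21.1% of all genes did, and 0 fell (median 2.044). Ppp1r15b did not pass at 0.241. Atf4, the transcription factor of the branch, was at 202, 208 and 206 TPM in control explants, against 121.5, 109 and 115 TPM in fresh lung (0.876 ± 0.109, edgeR adjusted p = 1.91e-04). Ddit3, which encodes the factor CHOP, was at 29.2, 31.7 and 33.6 TPM, against 18.6, 11.8 and 18.8 TPM (0.955 ± 0.238, edgeR adjusted p = 0.00963). In both genes all controls exceeded all fresh libraries. Sesn2, a stress-induced regulator of growth signalling, was at 16.7 ± 4.30 TPM in control explants and 3.26 ± 0.571 TPM in fresh lung (2.387 ± 0.198). Trib3, a pseudokinase, was at 10.8 ± 6.61 and 1.41 ± 0.716 TPM (2.815 ± 0.593). Nupr1, a small stress-induced chromatin protein, was at 28.4, 37.3 and 42.7 TPM in control explants, against 1.17, 0 and 0.69 TPM in fresh lung. Chac1, an enzyme that degrades glutathione, was at 13.1, 13.02 and 1.25 TPM in control explants, against 0, 0 and 0.16 TPM in fresh lung, with Control 3 again the lowest. ATF4 is also reached from other stress kinases, so this list is not particular to the endoplasmic reticulum.

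Of 28 other chaperones and co-chaperones tested, 10 rose and 1 fell (median 0.232), where 21.1% of all genes rose and 16.6% fell. Sdf2, the close relative of Sdf2l1, was at 84.0 ± 15.9 TPM in control explants and 48.0 ± 2.09 TPM in fresh lung (1.067 ± 0.170), and Rcn3, a calcium-binding protein of the secretory pathway, at 165.8 ± 24.6 and 100.7 ± 5.68 TPM (0.69). Sec63, a partner of BiP at the translocation pore, was the gene that fell (-0.335 ± 0.085, edgeR adjusted p = 0.0108). Of 19 disulfide isomerases and oxidases 4 rose (21.1%, the share of all genes that rose) and 0 fell (median 0.184), among them Erp29, a relative of the disulfide isomerases, at 132 ± 22.4 and 92.4 ± 6.23 TPM (0.574) and Creld1, the relative of Creld2, at 16.7 ± 6.45 and 8.91 ± 1.58 TPM (0.904). The Creld1 groups overlapped, with Control 3 at 9.31 TPM and fresh lung at 7.57 to 10.7 TPM, and the gene missed the threshold on log2(TPM + 0.1) (limma adjusted p = 0.0503). Of 24 genes of degradation, the role of Herpud1, 6 rose (25%, near the 21.1% of all genes) and 0 fell (median 0.205), among them Os9, a lectin of the degradation complex, at 49.2 ± 11.3 and 32.4 ± 2.64 TPM (0.638). The calls rested partly on single libraries: 6 chaperones passed without fresh library 2 or 3, and of the degradation genes 2 passed without either of these and 3 without fresh library 1 or Control 2.

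Of 28 genes of translocation and glycosylation 9 rose (32.1%, against 21.1% of all genes) and 0 fell (median 0.104). Among those that rose was Dad1, a subunit of the oligosaccharyltransferase, at 105.5 ± 19.2 TPM in control explants and 66.0 ± 4.15 TPM in fresh lung (0.679). Without fresh library 2 the count of genes of this list that rose was 6. Of 24 genes of export and retrieval 6 rose (25%, near the 21.1% of all genes) and 0 fell (median 0.162). On TPM with limma-trend the genes called higher numbered 2 of export and retrieval, 2 of degradation, 2 of the sensors, 6 chaperones and 6 of translocation and glycosylation with either pseudocount, and 2 and 1 disulfide isomerases with pseudocounts of 1 and 0.1, while 9 of the PERK and ATF4 branch still passed. Kdelr3, a receptor that returns chaperones such as BiP to the endoplasmic reticulum, was at 36.1, 34.8 and 36.1 TPM in control explants, against 16.6, 9.78 and 12.4 TPM in fresh lung (1.508 ± 0.186, edgeR adjusted p = 1.85e-04). In EPZ5676 explants against fresh lung 47 of the 143 were higher (32.9%, against 22.1% of all genes) and 4 lower (2.8%, against 17.9%), namely Creb3l2, Sec63, Rcn2 and Vcp.

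In EPZ5676 against control explants 0 of the 143 list genes passed the threshold, with a median of -0.014, and list medians lay between -0.224 (the branch of PERK and ATF4) and 0.027 (disulfide isomerases). Of the 10 genes of the PERK and ATF4 branch, 9 lay lower in EPZ5676 explants, where 49.2% of all genes lay higher, and none passed. Atf4 was at 191, 154 and 184 TPM in EPZ5676 explants, against 202, 208 and 206 TPM in control explants (log2 fold change -0.259, edgeR adjusted p = 0.684). The Atf4 values did not overlap, yet the gene was far from the threshold. Nupr1, the exception, was at 42.2, 67.3 and 83.8 TPM, against 28.4, 37.3 and 42.7 TPM (0.807 ± 0.320, edgeR adjusted p = 0.653). The sensors were near 0, at -0.039 for Ern1, -0.001 for Eif2ak3 and -0.04 for Atf6. By sign, 9 of the 10 sensors and membrane-bound factors and 20 of the 28 other chaperones and co-chaperones also lay lower. Over all 143 list genes 63 lay higher and 80 lower.

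**Figure D5:**
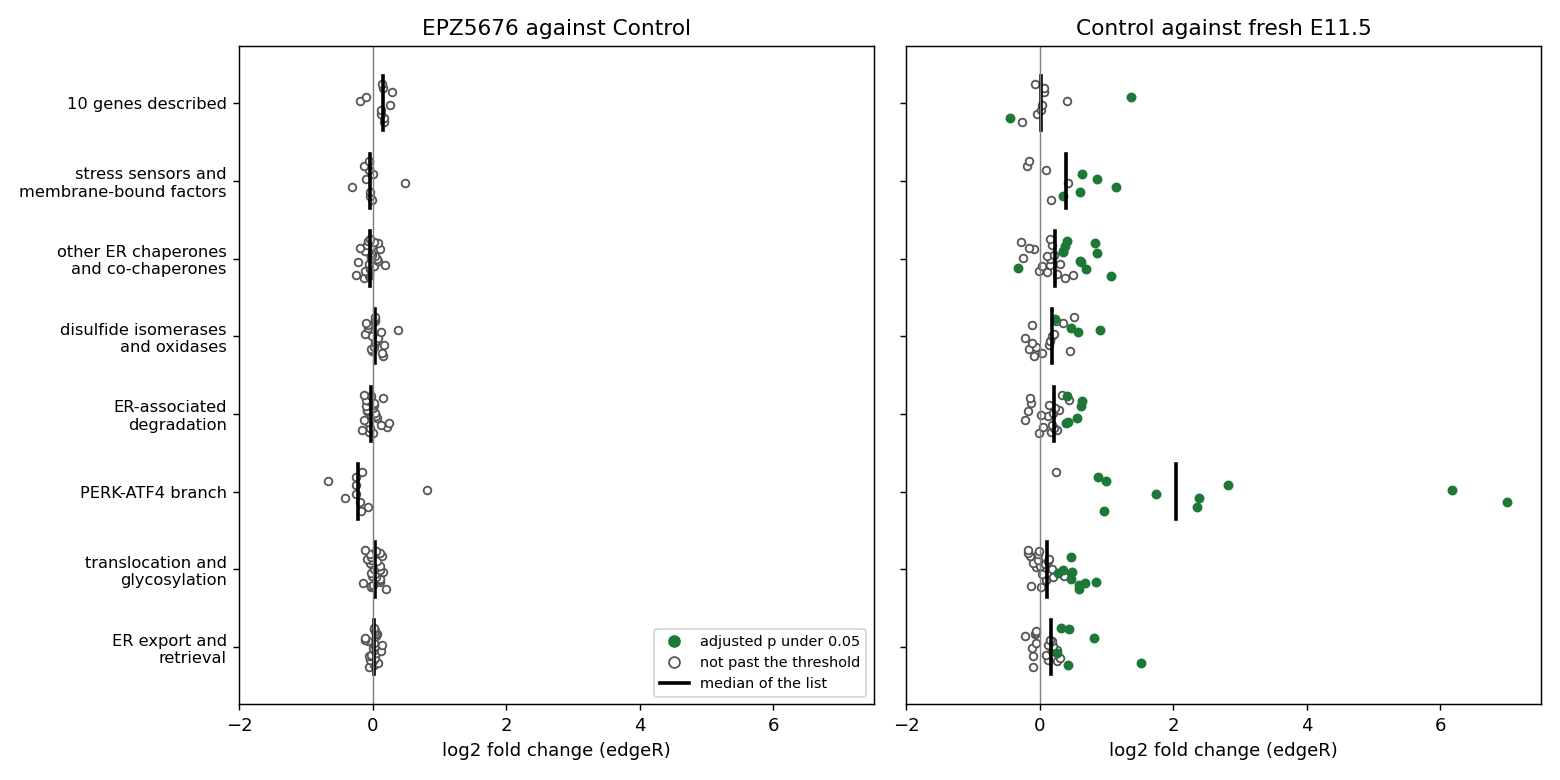
Log2 fold change from edgeR (horizontal axes) of each gene in 8 rows, the 10 genes described and 7 pathway lists, for EPZ5676 against Control (left) and Control against fresh E11.5 (right); filled points passed an adjusted p of 0.05 and bars are list medians. On the left no point is filled; on the right the PERK-ATF4 branch has a median of 2.044 while that of the 10 genes is 0.02.

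Within culture the members did not all vary together. The mean over the 10 genes of log2 CPM, centred per gene, was -0.051, 0.105 and 0.134 in EPZ5676 explants and -0.116, 0.14 and -0.213 in control explants. Each gene was set against the mean of the other 9 over the 6 cultured libraries, as a description, since the values share library depth and scaling. Pearson's r was 0.958 for Pdia4, 0.957 for Manf and 0.94 for Hspa5, and from 0.647 (Creld2) to 0.825 (Xbp1) for Sdf2l1, Calr, Hsp90b1 and these 2. It was -0.163 for Herpud1 and -0.478 for Dnajb9, which followed the others least. Without the 2 libraries farthest from the median of the 6 means over the 10 genes, Control 1 and Control 3, r was 0.217 for Calr, 0.069 for Sdf2l1, 0.333 for Creld2 and 0.999 for Herpud1, so these values rested on those libraries. The 5 genes outside the set that followed the mean most closely, of 9390 compared, were Zfp7 (r = 0.996), Ints2 (0.99), Ube3a (0.988), Eif3j2 (0.987) and Ints8 (0.986); with so many genes and 6 libraries, values of this size describe these libraries only.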

How the data were processed

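The members and gene lists were chosen with earlier results of these data known. RSEM, Bowtie2 and the build mm10 are named, without version or role, per the submitters' processing notes, and no source states the strand setting. The authors deposited expected counts per gene (12.5% to 15.3% of values not whole) and TPM, which sum to 998977 to 999233 per library; reads shared between similar genes are split by estimation. Positions came from GENCODE M21 (GRCm38), whose identifier and symbol pairs matched 100% of the 55286 genes.

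Expected counts were rounded, filtered with filterByExpr (minimum count 10) and scaled by TMM. A single edgeR 4.0.16 fit by group took all 9 libraries (R 4.3.3, robust quasi-likelihood F test, legacy method, two-sided, 6 residual degrees of freedom), with Benjamini-Hochberg adjustment over 15158 genes and a threshold of 0.05. Log2 fold changes come from this fit and levels from TPM, so the 2 need not match exactly. Log2 CPM used a prior count of 2. Depth was 6509563 to 9861452 counts per library, which limits low genes. Replicates differed by more than sampling noise (their chi-square was 2.63 to 31.0 times its degrees of freedom) and were all kept apart.

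Besides the 10 members, Ern1, Eif2ak3, Atf6, Atf4 and Ddit3 were named, and from each list up to 4 genes past the threshold with the largest change between control and fresh lung and a mean of at least 5 TPM, or else those with the smallest p; a selection is given. Sec63, Ppp1r15b, Creb3l2, Rcn2 in fresh lung and Vcp were named after their values were seen. Likeness was taken among genes with a mean of at least 10 TPM in culture. Alternatives were scaling by RLE or upper quartile, DESeq2 1.42.0, filters of 0 or of 50 counts in 3 libraries, fitting only the 6 libraries compared, a block on the replicate number, limma-trend (limma 3.58.1) on log2(TPM + 1) and log2(TPM + 0.1), and each library left out. The fit was tested on simulated data. Figures were drawn with matplotlib 3.10.9.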

Additional observations from a re-analysis of the deposited data

How the results depend on the processing

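Herpud1 passed the threshold in both comparisons with fresh lung under every alternative run, and in EPZ5676 against control explants no member passed under any of them. In that comparison the counts of all genes called higher and lower were 67 and 16 with DESeq2, 67 and 9 without a filter, 1 and 0 with the replicate block, and 0 to 26 and 0 to 1 with a library left out. Eif2ak3 turned sign with upper-quartile scaling (0.0184), the filter of 50 counts (0.00598), only 6 libraries (6.2e-04), the replicate block (3.2e-04) and log2(TPM + 1) or log2(TPM + 0.1) (0.0756 and 0.0834), and ranged from -0.107 to 0.104 with a library left out. Ern1 turned on TPM (0.0238 and 0.0287 with pseudocounts of 1 and 0.1). With a library left out Dnajb9 lay between -0.384 and 0.0277 and Atf6 between -0.083 and 0.00515.

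For control explants against fresh lung, Pdia4 turned sign with RLE (-0.00709) and upper-quartile scaling (-0.00842), DESeq2 (-0.00726) and the filter of 50 counts (-3.8e-04). On log2(TPM + 1) and log2(TPM + 0.1) the members above 0 numbered 3 and 2, their median was -0.0473 and -0.05, Pdia4 was at -0.0536 and -0.054, Sdf2l1 at -0.041 and -0.0459, Xbp1 at -0.0355 and -0.0372, and Creld2 at -3.0e-04 with the smaller pseudocount. The genes called higher on log2(TPM + 1) numbered 2119. Pathway genes called higher numbered 29 and 28, and those lower 2 with DESeq2, the replicate block and log2(TPM + 0.1). With a library left out, members called higher were 1 to 2, called lower 0 to 2 and above 0 3 to 7, all genes called lower 1648 to 2472 and pathway genes lower 0 to 2. The median of the members was then -0.155 to 0.146, Calr -0.144 to 0.0597, Pdia4 -0.172 to 0.127, Sdf2l1 -0.167 to 0.23, Xbp1 -0.121 to 0.267 and Creld2 -0.0259 to 0.166.

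For EPZ5676 explants against fresh lung, 2 members were called higher and 1 lower with only 6 libraries, and 1 lower with the replicate block (Hsp90b1, -0.291, edgeR adjusted p = 0.0421). Calr was at -0.00174 on both TPM scales, where 2 pathway genes were lower. With a library left out, Hspa5 lay between -0.19 and 0.00168, Calr between -0.00915 and 0.15, Manf between -0.0415 and 0.136, and pathway genes called lower numbered 2 to 4. The causes were not tested.

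The labels do not say whether replicate numbers pair the libraries. Deviations of same-numbered libraries correlated between -0.102 and 0.457, the highest being that of EPZ5676 1 with Control 1. In each comparison at least 1 pair was under 0.1. These 2 libraries differed in sex (Xist 0.58 and 281 TPM, Ddx3y 55.72 and 0 TPM), so they did not come from the same embryos. Whether libraries were paired in another way cannot be told from these values, and the block results are given here only. Counts were lowest for Sdf2l1, Herpud1 and Dnajb9, at 61, 111 and 149 in the lowest library of each. Such counts and 3 libraries a group limit what can be seen, and culture, age and tissue composition cannot be told apart.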
